A study of Mus musculus with 24 samples.

Results

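The genes described here are 10 markers of endothelial cells, the cells that line blood vessels: Ptprb, Cdh5, Esam, Pecam1, Egfl7, Tie1, Tek, Kdr, Emcn and Cldn5. They were followed over genotype and circadian time among 19938 genes measured on 24 Affymetrix mouse gene arrays of inguinal fat, a subcutaneous depot. The members were taken by symbol, and each was read by a single probe set with 1 gene symbol in the platform annotation. Values are log2 expression after RMA (robust multi-array average), so a difference of 1 is a doubling. Knockout mice carried aP2-Cre+/- and Bmal1fx/fx, and control mice carried Bmal1fx/fx without Cre, each sampled every 6 h at circadian time (CT) 0, 6, 12 and 18 with 3 replicates per group. CT0 is the start of the subjective day. All mice were backcrossed to C57BL/6J for at least 6 generations, ate chow, were kept in the dark from 36 h before collection began and were fasted for 24 h. The labels state no age. The controls lacked Cre, so an effect of Cre itself cannot be told apart from that of the deletion. The aP2 promoter is that of Fabp4, a fatty acid binding protein gene of adipocytes that capillary endothelium also expresses, and which cells recombined was not measured.

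Endothelial cells hold together through VE-cadherin, claudins and immunoglobulin-like adhesion molecules. They take growth and survival signals through the VEGF receptor Kdr and the angiopoietin receptor Tek, and the phosphatase Ptprb acts on both the VE-cadherin and the Tek complexes. White fat is densely supplied with capillaries, through which lipoprotein lipid reaches the adipocytes. The arrays measured whole tissue, so fewer endothelial cells and less RNA per endothelial cell cannot be told apart in any value below.

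The tissue label was checked against marker levels. Adipoq, the adipocyte hormone adiponectin, read 11.8 to 12.1 on the 24 arrays, and Fabp4 read 12.4 to 12.7. The endothelial members lay above the middle of all genes by mean level, from Tie1, with 55.8% of genes at or below it, to Cdh5, with 95.5%. The targeted gene Arntl, which encodes BMAL1, had a log2 difference, knockout minus control, of -0.54 ± 0.16 at CT0 (SE, limma adjusted p = 0.633), 0.23 ± 0.16 at CT6, 0.40 ± 0.16 at CT12 and -0.06 ± 0.16 at CT18, none past the threshold, and its mean difference over the 4 times was 0.01 ± 0.08 (adjusted p = 0.997). Whether its probe set lies in the deleted part is not given in the sources used here, so these values do not check the deletion. Knockout replicate 2 at CT0 stood apart from the other arrays: its adipocyte list level, the mean of 11 genes after subtraction of each gene's mean over all arrays, was -0.60, and its epithelial list level over 9 genes was 0.87. Earlier work on these data had singled out 4 further arrays, at CT12 the control and the knockout replicate 1 and at CT18 the control and the knockout replicate 3, as lying toward the other genotype for genes that differ by genotype. Leaving out arrays chosen in this way favours wider genotype differences, so values from that fit are a description and not added support. Mean differences of members and medians of lists that moved by over 1.5 times or turned sign without the first of these arrays, or without the other 4, are also given without them.

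Upstream sequence is shown for members with a motif match, because the members vary together across arrays and BMAL1 with CLOCK binds the E-box CACGTG. RefSeq promoter entries (build GRCm38.p6) were matched for 6 of the 10 members, with 8 start sites among them. The 250 bases before each start were searched on both strands for CACGTG and for GGAAGT, a core shared by sites of ETS factors, the family of the endothelial regulators Erg and Fli1. CACGTG was in 0 of these 8 windows and in 6.02% of 32851 windows over all genes. GGAAGT was in 4 of the 8, at 3 genes, and in 19.7% of all windows. The windows printed were chosen after the matches were seen. With no CACGTG found, no overlap of the motifs arose, and a match is a description of the letters, not a site in use. Capitals mark GGAAGT or its reverse complement, and each run is written 5′ to 3′ on the gene's strand, from chr2:26580833-26581082 (plus) for Egfl7, chr5:75978456-75978705 (minus) for Kdr and chr4:118489850-118490099 (minus) for Tie1.
Egfl7: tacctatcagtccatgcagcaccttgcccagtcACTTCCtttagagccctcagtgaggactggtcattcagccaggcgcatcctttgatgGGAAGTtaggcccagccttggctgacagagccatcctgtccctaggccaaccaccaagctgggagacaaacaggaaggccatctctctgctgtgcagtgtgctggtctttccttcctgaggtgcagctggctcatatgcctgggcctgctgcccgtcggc
Kdr: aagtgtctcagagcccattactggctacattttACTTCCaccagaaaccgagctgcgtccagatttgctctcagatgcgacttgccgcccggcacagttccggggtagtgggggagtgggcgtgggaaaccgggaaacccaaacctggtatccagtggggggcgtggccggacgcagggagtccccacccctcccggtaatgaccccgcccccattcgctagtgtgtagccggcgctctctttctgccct
Tie1: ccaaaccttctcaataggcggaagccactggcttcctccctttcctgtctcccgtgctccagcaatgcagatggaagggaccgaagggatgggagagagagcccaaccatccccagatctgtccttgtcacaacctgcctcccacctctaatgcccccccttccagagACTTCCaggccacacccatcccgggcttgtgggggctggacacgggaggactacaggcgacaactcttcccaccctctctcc
In Egfl7 the matches begin at -217 and -160 from the start, in Kdr at -217 and in Tie1 at -82, and another start of Egfl7 has a match at -79. The windows of Cldn5, Emcn and Tek held neither motif. The Kdr window lies within the annotated gene span, chr5:75932827-75979072, so it is upstream of a start inside that span.

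All 10 members had a lower mean in knockout than in control fat when averaged over the 4 times, and none passed the test over all genes. The median log2 difference was -0.16, with a range from -0.26 for Ptprb to -0.07 for Emcn, against a median of 0.00077 over all genes. Of all genes, 49.4% lay below 0 and 0.0201% passed (4 of 19938, by limma with Benjamini-Hochberg adjustment and a threshold of 0.05). At an unadjusted p under 0.05 the count was 6 of 10 members, all lower, against 3.58% of all genes that were lower at that level. The smallest adjusted p among the members was 0.634. The members were chosen with earlier results of these data known, and they vary together across arrays. These counts are therefore a description and not a tally of independent genes. Without knockout replicate 2 at CT0 the median was -0.12 with 10 of 10 below 0 and 5 of 10 at an unadjusted p under 0.05, beside 3.54% of all genes lower at that level. Without the 4 further arrays it was -0.15 with 10 of 10 below 0 and 4 of 10 at that level (Ptprb, Esam, Pecam1 and Egfl7), beside 5.05% of all genes lower at that level.

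**Figure D1:**
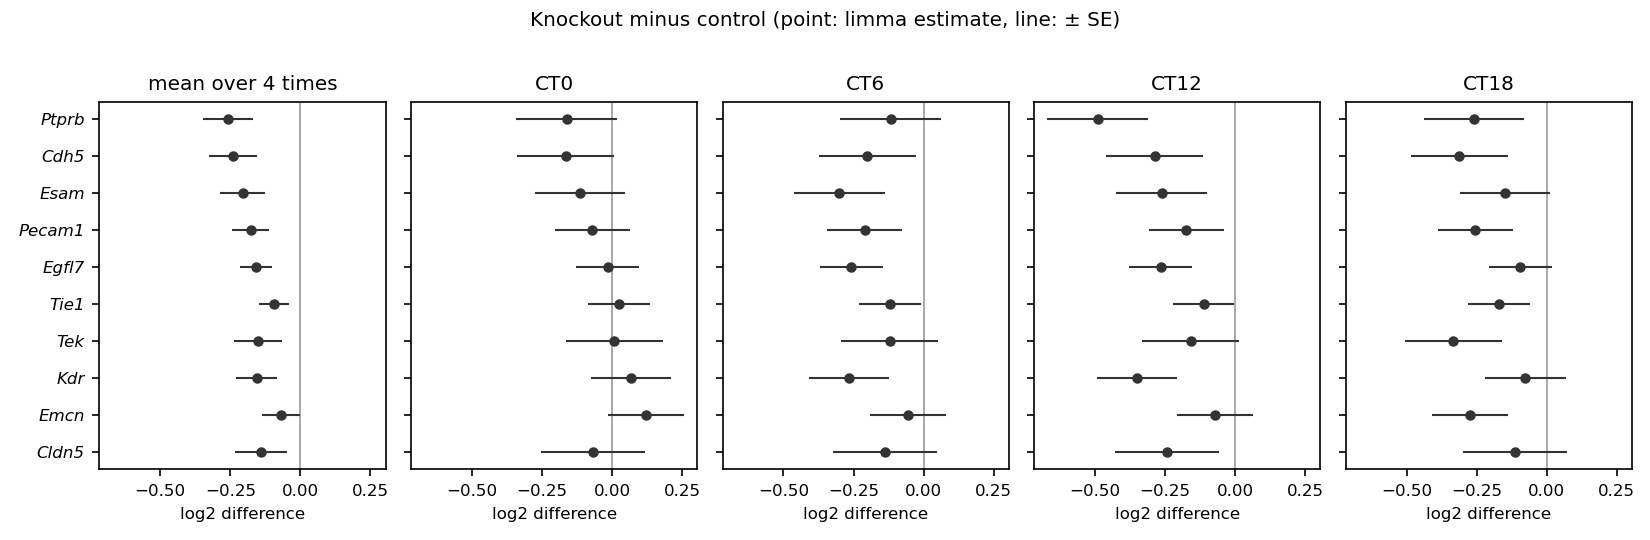
Log2 difference, knockout minus control, for each of the 10 endothelial marker genes, averaged over the 4 circadian times and at each time (points, limma estimates; lines, ± SE; the x axes are shared). The mean differences run from -0.26 to -0.07, all below 0, while at CT0 the points lie on both sides of 0.

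Among the junction and adhesion genes, Cdh5, which encodes VE-cadherin, the cadherin of endothelial adherens junctions, had a mean difference of -0.24. The gene lies at chr8:104101613-104144504 (GRCm38.p6). At CT0 control fat gave 9.52, 9.50 and 9.88 (replicates 1, 2 and 3) and knockout fat gave 9.56, 9.03 and 9.81, and at CT6 control fat gave 9.87, 10.06 and 9.90 and knockout fat gave 9.47, 9.72 and 10.04. At CT12 control fat gave 9.74, 9.65 and 9.72 and knockout fat gave 9.32, 9.27 and 9.65, and at CT18 control fat gave 9.81, 9.73 and 9.99 and knockout fat gave 9.37, 9.84 and 9.39. The genotypes overlapped at every time, with 1 or more knockout arrays within or above the control range, although 10 of 12 knockout values were under the control mean at the same time, as at least 9 were for 12.1% of all genes. The mean difference was -0.24 ± 0.09 (SE, 95% interval -0.42 to -0.06, adjusted p = 0.641), a ratio of 0.846.

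Pecam1 (chr11:106654213-106715281), the adhesion molecule CD31, was the member with the most knockout values under the control mean at the same time, 11 of 12. At CT6 control fat gave 9.42, 9.42 and 9.37 and knockout fat gave 9.10, 9.12 and 9.35, and at CT18 control fat gave 9.23, 9.28 and 9.11 and knockout fat gave 8.77, 9.08 and 9.00. At these times every knockout array lay below every control array, as it did for 6.27% of all genes at CT6 and for 4.25% at CT18. At CT0 control fat gave 8.93, 8.97 and 9.41 against 9.07, 8.71 and 9.32 in knockouts, and at CT12 they read 9.01, 9.07 and 9.15 against 8.85, 8.80 and 9.06. The mean difference was -0.18 ± 0.07 (SE, 95% interval -0.32 to -0.04, adjusted p = 0.672).

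Esam, an immunoglobulin-like adhesion molecule of endothelial tight junctions and platelets, had a median of 7.35 over the 12 control arrays (6.99 to 7.65) and of 7.13 over the 12 knockout arrays (6.74 to 7.44). Its mean difference was -0.21 ± 0.08 (SE, adjusted p = 0.708), with 10 of 12 knockout values under the control mean at the same time and overlap at all 4 times. Cldn5, the claudin that seals endothelial tight junctions, had a median of 8.12 in controls (7.75 to 8.56) and 8.02 in knockouts (7.43 to 8.39). The knockout arrays of Cldn5 spread more widely than the controls, and the mean difference of -0.14 ± 0.09 (SE, adjusted p = 0.915) had a 95% interval from -0.33 to 0.05. It was -0.08 ± 0.11 (SE) without the 4 further arrays.

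Ptprb (chr10:116275502-116389538), which encodes the phosphatase VE-PTP, had the widest mean difference of the 10, -0.26 ± 0.09 (SE, 95% interval -0.44 to -0.07, adjusted p = 0.634), a ratio of 0.836. At CT12 control fat gave 9.28, 9.31 and 9.31 and knockout fat gave 8.75, 8.57 and 9.12. These controls lay within 0.03 of each other. Every knockout array lay below every control array, as was so for 5.12% of all genes at CT12. At CT0 control fat gave 8.62, 8.61 and 9.12 and knockout fat gave 8.79, 8.14 and 8.93, at CT6 9.15, 9.04 and 9.19 against 8.80, 8.96 and 9.26, and at CT18 9.38, 8.99 and 9.21 against 8.76, 8.97 and 9.08. The difference at CT12 was -0.49 ± 0.18 (SE, adjusted p = 1.00), the widest of any member at any time, and the differences at the other times were -0.16 at CT0, -0.12 at CT6 and -0.26 at CT18.

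**Figure D2:**
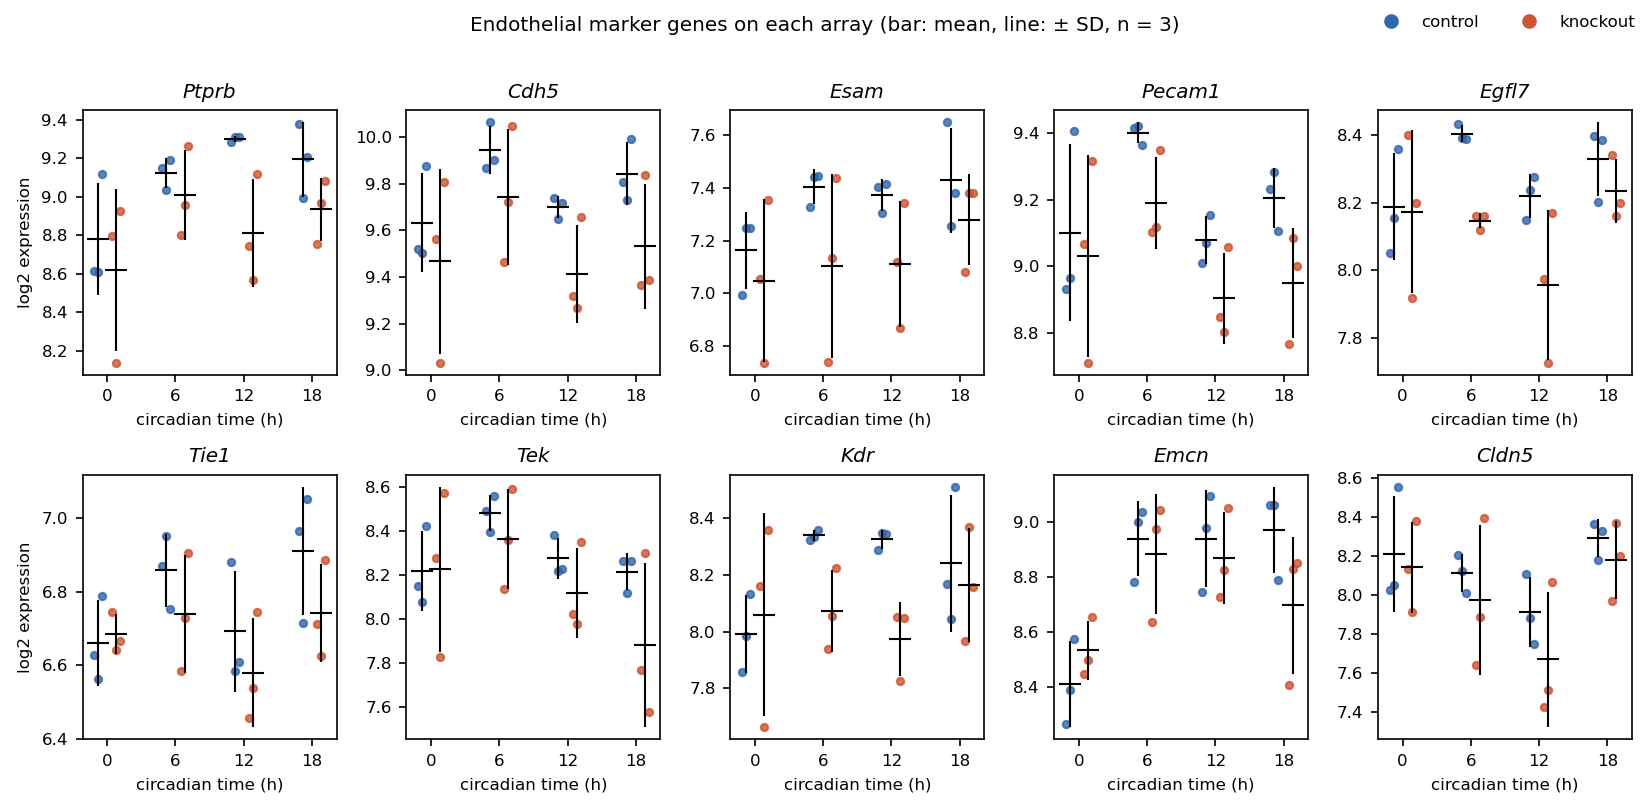
Log2 expression (y axis, scaled for each gene) of each endothelial marker gene on every array by circadian time in hours, control in blue and knockout in orange, with group means (bars) and SD (lines, n = 3). The control arrays of Ptprb at CT12 read 9.28 to 9.31 above knockout arrays at 8.57 to 9.12, and Emcn is lowest at CT0 in both genotypes.

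Of the receptor genes, Kdr (chr5:75932827-75979072), which encodes VEGF receptor 2, had every knockout array below every control array at CT6 and CT12. The same held for 6.27% of all genes at CT6 and for 5.12% at CT12. At CT6 control fat gave 8.32, 8.33 and 8.36 and knockout fat gave 7.94, 8.06 and 8.22, and at CT12 control fat gave 8.29, 8.35 and 8.34 and knockout fat gave 8.05, 7.82 and 8.05. At CT0 the order was mixed, with controls at 7.86, 7.98 and 8.13 and knockouts at 8.16, 7.66 and 8.36, and at CT18 the ranges overlapped. The differences were 0.07 ± 0.14 at CT0, -0.27 ± 0.14 at CT6, -0.35 ± 0.14 at CT12 and -0.08 ± 0.14 at CT18 (SE), with a mean of -0.16 ± 0.07 (adjusted p = 0.789). The control arrays at CT6 and CT12 were close together, with SDs of 0.019 and 0.033 against 0.14 and 0.13 in the knockouts. Fits pooled the spread over all 8 groups, so narrow groups like these lowered the SE at all times alike and not at their own times alone. The interaction of genotype and time for Kdr had an unadjusted p of 0.191 and an adjusted p of 1.00, so the differences at separate times were not shown to differ.

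Tek, which encodes the angiopoietin receptor TIE2, read lowest on knockout arrays at CT18, at 7.77, 8.30 and 7.58 against 8.26, 8.12 and 8.26 in controls. Replicate 2 lay above the controls and the other knockout arrays below all of them. The difference at CT18 was -0.33 ± 0.17 (SE, adjusted p = 0.834) and became -0.16 ± 0.21 without the 4 arrays, which include the knockout array at 7.58. Over all times the difference was -0.15 ± 0.09 (SE, adjusted p = 0.893), with a 95% interval from -0.33 to 0.03, and it was -0.08 ± 0.10 without the 4 arrays. Tie1, the related receptor that forms complexes with TIE2, had a median of 6.77 in controls (6.56 to 7.05) and 6.69 in knockouts (6.46 to 6.91), and a mean difference of -0.09 ± 0.05 (SE, adjusted p = 0.897), which became -0.06 ± 0.05 without the 4 arrays. Its knockout and control arrays overlapped at all 4 times.

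Egfl7, a secreted protein of the vessel wall that is also the host gene of the microRNA miR-126, had its genotypes fully apart at CT6. Every knockout array lay below every control array at that time, as for 6.27% of all genes. The controls read 8.43, 8.39 and 8.39 there and the knockouts 8.16, 8.12 and 8.16, the tightest groups of this gene. At CT12 control fat gave 8.15, 8.24 and 8.28 and knockout fat gave 7.97, 7.73 and 8.17, with knockout replicate 3 inside the control range. The differences of -0.26 ± 0.11 at CT6 and -0.26 ± 0.11 at CT12 (SE) stood beside -0.02 ± 0.11 at CT0 and -0.09 ± 0.11 at CT18, and the mean was -0.16 ± 0.06 (adjusted p = 0.637).

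Emcn (chr3:137341062-137431069), which encodes endomucin, a sialomucin of capillary and venous endothelium, had 6 of 12 knockout values under the control mean at the same time and a mean difference of -0.07 ± 0.07 (SE, adjusted p = 0.966). Without the 4 further arrays the mean difference was -0.12 ± 0.07, beyond those of Tie1, Tek and Cldn5 in the same fit, and the difference at CT18 went from -0.27 ± 0.14 to -0.44 ± 0.15 (SE, adjusted p = 0.447). For circadian time Emcn was the one member past the threshold, which does not show that it differs from the others. Averaged over genotypes, the F test over the 4 times gave an adjusted p of 0.0446 for Emcn by limma, as 0.883% of all genes passed (176 of 19938). At an unadjusted p under 0.05, 5 of 10 members passed (Ptprb, Pecam1, Tek, Emcn and Cldn5), against 16.1% of all genes. At CT0 control fat gave 8.27, 8.39 and 8.58 and knockout fat gave 8.45, 8.50 and 8.65, with a mean of 8.47 ± 0.14 over both genotypes (SD, n = 6). The means over both genotypes were 8.91 ± 0.17 at CT6, 8.90 ± 0.16 at CT12 and 8.83 ± 0.24 at CT18 (SD, n = 6). CT0 was therefore lowest in both genotypes, and the means of CT6, CT12 and CT18 lay within 1 SD of each other. At CT6 control fat gave 8.78, 9.00 and 9.04 and knockout fat gave 8.64, 8.98 and 9.04, at CT12 8.75, 8.98 and 9.09 against 8.73, 8.83 and 9.05, and at CT18 9.06, 9.06 and 8.79 against 8.41, 8.83 and 8.85. The knockout replicate 1 arrays of CT6 (8.64) and CT18 (8.41) lay within the CT0 range of 8.27 to 8.65, and every other array of the later times lay above it. CT12 lay above CT0 by 0.53 ± 0.14 in control fat (SE, adjusted p = 0.357) and by 0.33 ± 0.14 in knockout fat (SE, adjusted p = 0.403), and for this difference 0.0401% of all genes passed in control fat and 0.0953% in knockout fat. The call sits at the threshold: it held in 4 of 24 fits with 1 array left out, with an adjusted p between 0.0254 and 0.137, and it was lost when each array's median was subtracted (adjusted p = 0.064). It held without the 4 further arrays (adjusted p = 0.0474). With the replicate number as a block the adjusted p was 0.0098, but replicate numbers do not link animals between times. That block is therefore arbitrary and adds no support to the call.

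Other members had higher or lower means at some times without passing. Ptprb in control fat lay at 8.78 ± 0.29 at CT0 and 9.30 ± 0.016 at CT12 (SD, n = 3), a difference of 0.52 ± 0.18 (SE, adjusted p = 0.78), and Kdr at 7.99 ± 0.14 and 8.33 ± 0.033. Cldn5 went the other way in knockout fat, from 8.14 ± 0.23 at CT0 to 7.67 ± 0.35 at CT12 (SD, n = 3), a difference of -0.47 ± 0.19 (SE, adjusted p = 0.39). Pecam1 was highest at CT6 over both genotypes, at 9.30 ± 0.15 (SD, n = 6), and lowest at CT12, at 8.99 ± 0.14. Over the 4 times, 0 of 10 members passed in control fat, where 0.0602% of all genes did, and 0 of 10 in knockout fat, where 0.0702% did, by limma. At an unadjusted p under 0.05, 2 members did so in control fat (Emcn and Ptprb) and 1 in knockout fat (Cldn5), against 5.8% and 13.4% of all genes.

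The genotype differences were unevenly placed over the day, and the unevenness was not shown by a test. The median over the members was -0.04 at CT0, -0.17 at CT6, -0.25 at CT12 and -0.21 at CT18, and the number of members below 0 was 6, 10, 10 and 10 of 10. Over all genes the median was 0.014, 0.0019, -0.015 and -0.00057 at these times, with 44.6%, 49.2%, 56.4% and 50.2% of genes below 0. No member passed at any time, and 0 of 19938 genes passed at CT0, CT6 and CT12 and 1 (0.00502%) at CT18. At an unadjusted p under 0.05 the lower members were 0 at CT0, 1 at CT6 (Egfl7), 3 at CT12 (Ptprb, Egfl7 and Kdr) and 0 at CT18, against 2.78%, 2.06%, 1.66% and 2.98% of all genes. For the interaction of genotype and time 0 of 10 members and 0 of 19938 genes (0%) passed, by limma, and 0 members against 2.98% of all genes had an unadjusted p under 0.05. The differences at all 4 times were below 0 for 6 of the 10 members, against 7.77% of all genes. At CT0 the arrays of the genotypes overlapped for all 10 members, while 4.47% of all genes had every knockout array below every control array and 6.28% had every knockout array above. Without the 4 further arrays Kdr at CT18 (0.06) and Tie1 at CT12 (0.04) lay above 0. The CT0 median rested on single arrays: without knockout replicate 2 it was 0.084 with 10 of 10 members above 0, without knockout replicate 3 it was -0.18, and without control replicate 3 it was 0.086. At CT6 the median was -0.05 without knockout replicate 1 and -0.28 without knockout replicate 3, and at CT12 it was -0.15 without knockout replicate 2 and -0.37 without knockout replicate 3.

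The 10 genes moved together from array to array. Their level on an array, as the mean of the 10 after subtraction of each gene's mean, had a median of 0.11 over the 12 control arrays (-0.21 to 0.22) and of -0.04 over the 12 knockout arrays (-0.40 to 0.23). The lowest array was knockout replicate 2 at CT0 at -0.40, the array with the lowest adipocyte and highest epithelial level, and the part of tissue composition in its values was not tested. At CT6 the 3 control arrays lay between 0.17 and 0.20 and the knockouts at -0.19, -0.01 and 0.23. At CT12 the controls lay between 0.05 and 0.09 and the knockouts at -0.24, -0.32 and 0.05. Replicate 3 was thus the knockout array nearest the controls at both times, and replicate numbers do not link animals between times.

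**Figure D3:**
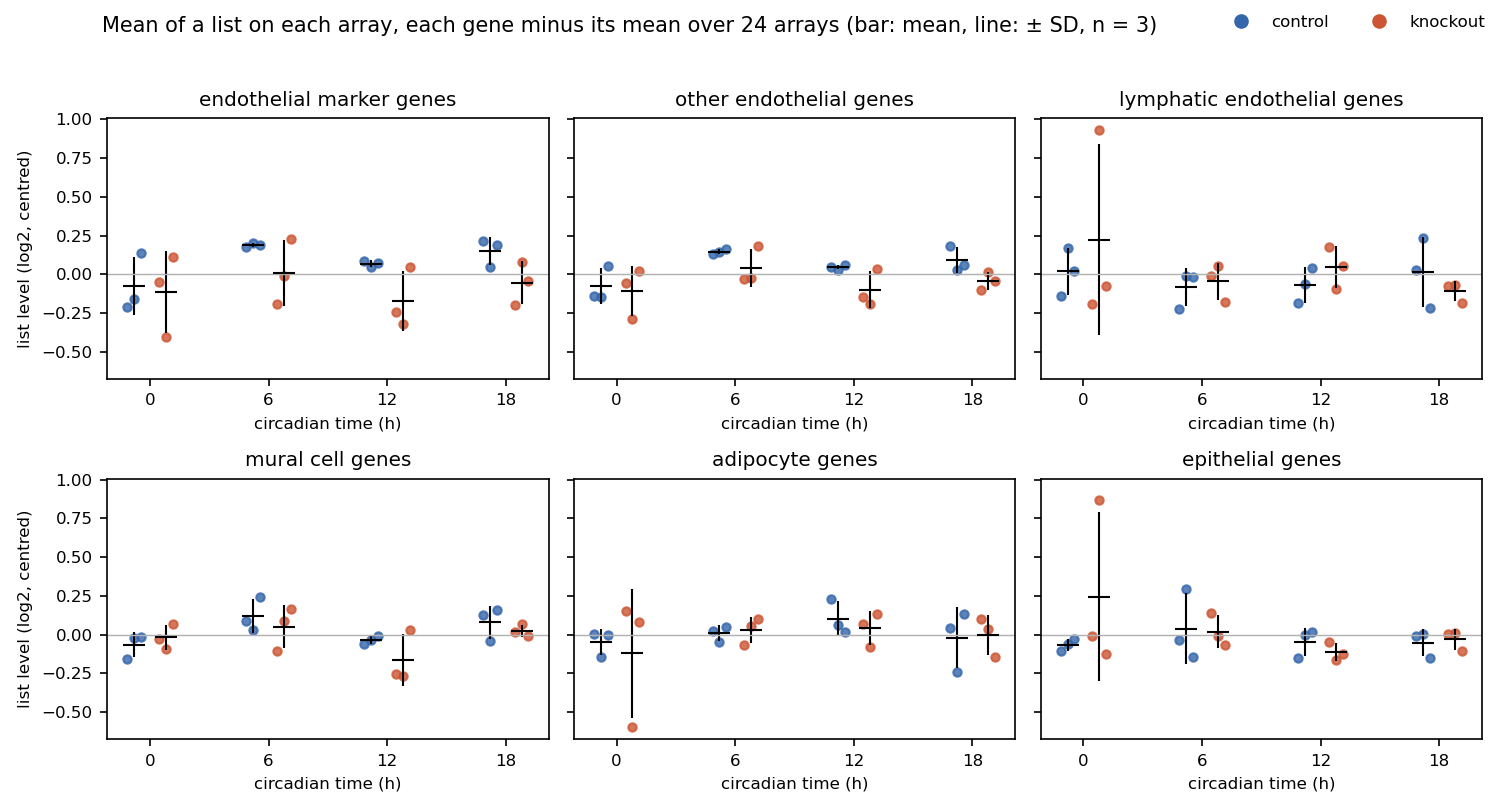
Level of 6 gene lists on each array (y axis, mean over the list of log2 values after subtraction of each gene's mean over 24 arrays) by circadian time in hours, control in blue and knockout in orange, with group means (bars) and SD (lines, n = 3). The endothelial marker genes and the other endothelial genes show like patterns, and knockout replicate 2 at CT0 is at 0.93 for lymphatic and 0.87 for epithelial genes and at -0.60 for adipocyte genes.

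Over the 24 arrays all 45 pairs of members had a Pearson r above 0, with a median of 0.60, a lowest value of 0.04 for Emcn with Cldn5 and a highest of 0.87 for Cdh5 with Pecam1. After subtraction of the group means, which removes genotype and time, the median was 0.67, from 0.10 for Egfl7 with Emcn to 0.92 for Cdh5 with Tek. These arrays share 1 normalization, and the values are given as a description. No correlation was computed without knockout replicate 2 at CT0, the array with the lowest level of the members. Each member was also set against the mean of the other 9. Cdh5 had the highest r of 0.93, which 1 of 19928 other genes reached, and Emcn the lowest, 0.50, which 3.01% of other genes reached. Within groups Ptprb (0.92), Cdh5 (0.92) and Cldn5 (0.87) followed the others most closely, and Tie1 least (0.49, reached by 9.18% of other genes). Cldn5 had 0.58 over all arrays, below its within-group value. Its lowest mean over both genotypes was at CT12, 7.79 ± 0.28 (SD, n = 6), a time at which Emcn was at 8.90.

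**Figure D4:**
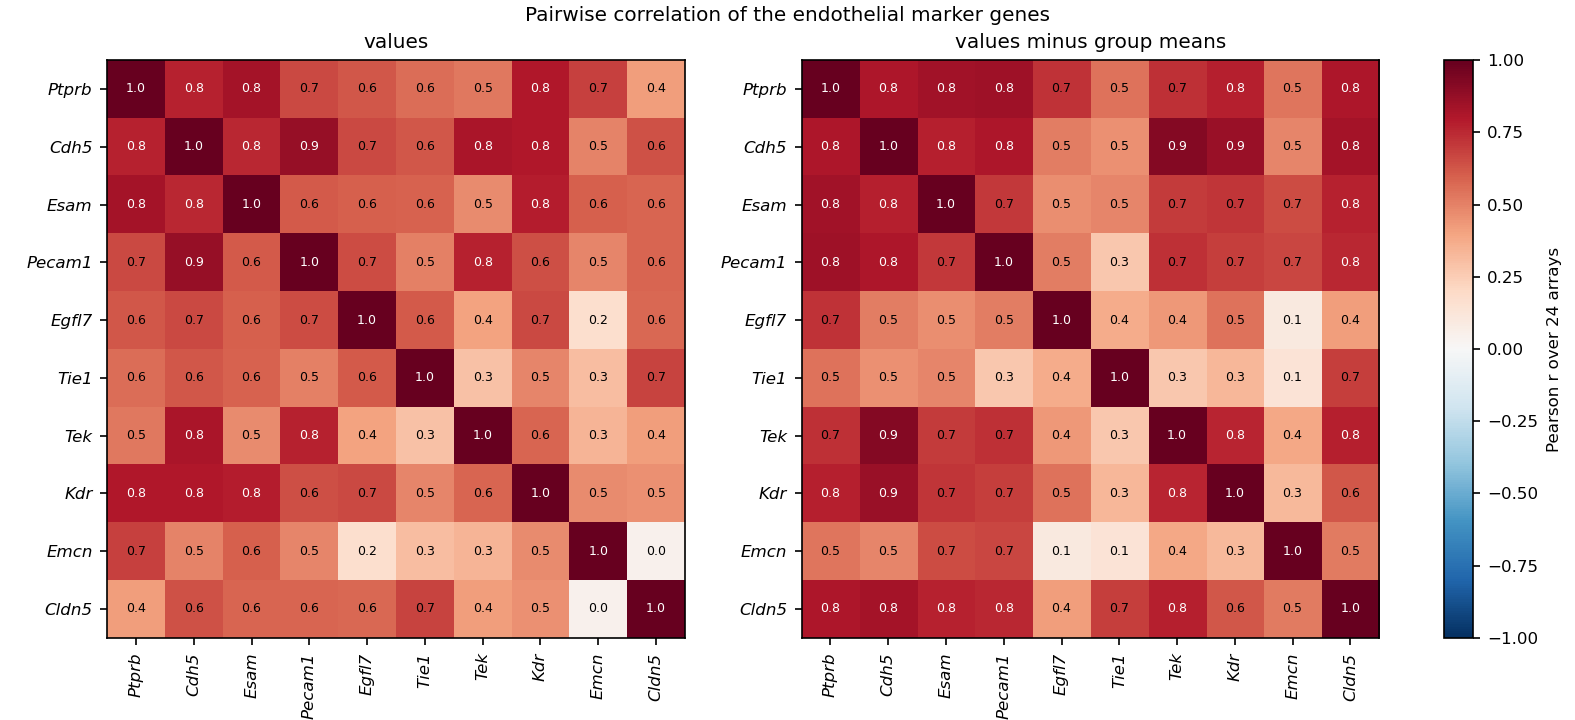
Pearson r between each pair of endothelial marker genes over 24 arrays, for the log2 values (left) and after subtraction of group means (right), on a colour scale from -1 to 1 with r printed in each cell. All pairs lie above 0, with Cdh5 and Tek highest within groups (0.92) and Emcn with Egfl7 lowest (0.10).

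The genes outside the 10 whose values were most like the members' mean over the 24 arrays were led by Flt1, VEGF receptor 1, with r = 0.93. The next were Cd300lg, a receptor of capillary endothelium (0.89), Uaca (0.88), Abcc9, a potassium channel subunit of mural cells (0.88), Meox2, a homeobox factor of capillary endothelium in fat and muscle (0.88), and T-cadherin, Cdh13 (0.86). Adgrf5 (0.86), the ETS factor Erg (0.86), Rtp3 (0.85) and the adhesion receptor Adgrl4 (0.85) completed the first 10. After subtraction of group means the first 10 were Flt1 (0.96), Gpr160 (0.95), Cdh13 (0.94), Meox2 (0.92), Coro6 (0.91), Cyp4b1 (0.91), Adgrf5 (0.91), Kank3 (0.90), Uaca (0.89) and Cd300lg (0.88), 6 of them shared with the first set. All 10 genes of each set had a mean genotype difference below 0, and both sets were chosen for their likeness to the members. Adgrf5 (-0.27 ± 0.09, SE, adjusted p = 0.634), Flt1 (-0.26 ± 0.09, adjusted p = 0.634) and Erg (-0.21 ± 0.07, adjusted p = 0.637) were of the size of the members' differences, and none passed.

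Of 32 other endothelial genes, 27 lay below 0 for the mean genotype difference and 5 above, with a median of -0.12, and 0 passed over all genes. At an unadjusted p under 0.05 there were 10, all lower, against 3.58% of all genes. Those with the smallest p were Robo4, an endothelial roundabout receptor (-0.21 ± 0.07, SE, adjusted p = 0.515), Notch4 (-0.12 ± 0.04, adjusted p = 0.562), Flt1 and Erg. Not all markers lay low, since Plvap, the protein of fenestral diaphragms, was at 0.03 ± 0.06, Ecscr at -0.0012 ± 0.06 and Cd93 at -0.01 ± 0.07. Plvap, Ecscr and Cd93 were chosen after their values were seen. The level of this list on the 24 arrays had r = 0.96 with that of the 10 members, and without knockout replicate 2 at CT0 its median was -0.09, with 28 of 32 below 0.

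Of 9 capillary genes that handle lipid or are enriched in fat capillaries, 9 lay below 0 with a median of -0.08, and 0 passed. They included Gpihbp1, which anchors lipoprotein lipase on the capillary wall (-0.22 ± 0.09, SE, adjusted p = 0.76), Meox2 (-0.21 ± 0.12, adjusted p = 0.884) and its partner Tcf15 (-0.15 ± 0.07, adjusted p = 0.821). Btnl9 was at -0.06 ± 0.04 (adjusted p = 0.91). The adipocyte genes Cd36 and Fabp4, which capillaries share, were at -0.02 ± 0.04 and -0.03 ± 0.04. Without knockout replicate 2 at CT0 the median of this list was -0.03, with 8 of 9 below 0, and Meox2 was at -0.12 ± 0.09. Arterial genes had a median of 0.0034 with 4 of 9 below 0, among them the gap junction genes Gja4 (-0.17 ± 0.07, adjusted p = 0.722) and Gja5 (-0.12 ± 0.08, adjusted p = 0.911). Without that array the arterial median was -0.03 with 6 of 9 below 0, and without the 4 further arrays it was -0.0017 with 5 of 9 below 0. By time, 8 of 9 arterial genes lay above 0 at CT0 (median 0.12) and 9 of 9 below 0 at CT12 (median -0.17). The arterial medians were -0.00044 at CT6 and -0.06 at CT18, and 0 genes of the list passed at any time. Knockout replicate 2 at CT0 had the highest arterial level of all arrays, 0.15. All 5 venous genes measured lay below 0 with a median of -0.05, led by Vcam1 (-0.21 ± 0.09, adjusted p = 0.784) and Ephb4 (-0.13 ± 0.06, adjusted p = 0.791), and 0 passed. Without that array 4 of 5 lay below 0, with a median of -0.13, and without the 4 further arrays 4 of 5, with a median of -0.10.

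Lymphatic endothelial genes were above 0 for 6 of 6, from 0.04 for Pdpn to 0.10 for Lyve1, a hyaluronan receptor, with a median of 0.05, and 0 passed. That side of 0 rested on knockout replicate 2 at CT0, whose lymphatic level was 0.93. Without it 3 of 6 lay above 0 and the median was -0.01, and without the 4 further arrays 4 of 6 lay above 0 and the median was 0.02. Prox1, the defining lymphatic factor, read 4.74 on average, with 14.7% of genes at or below it.

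**Figure D5:**
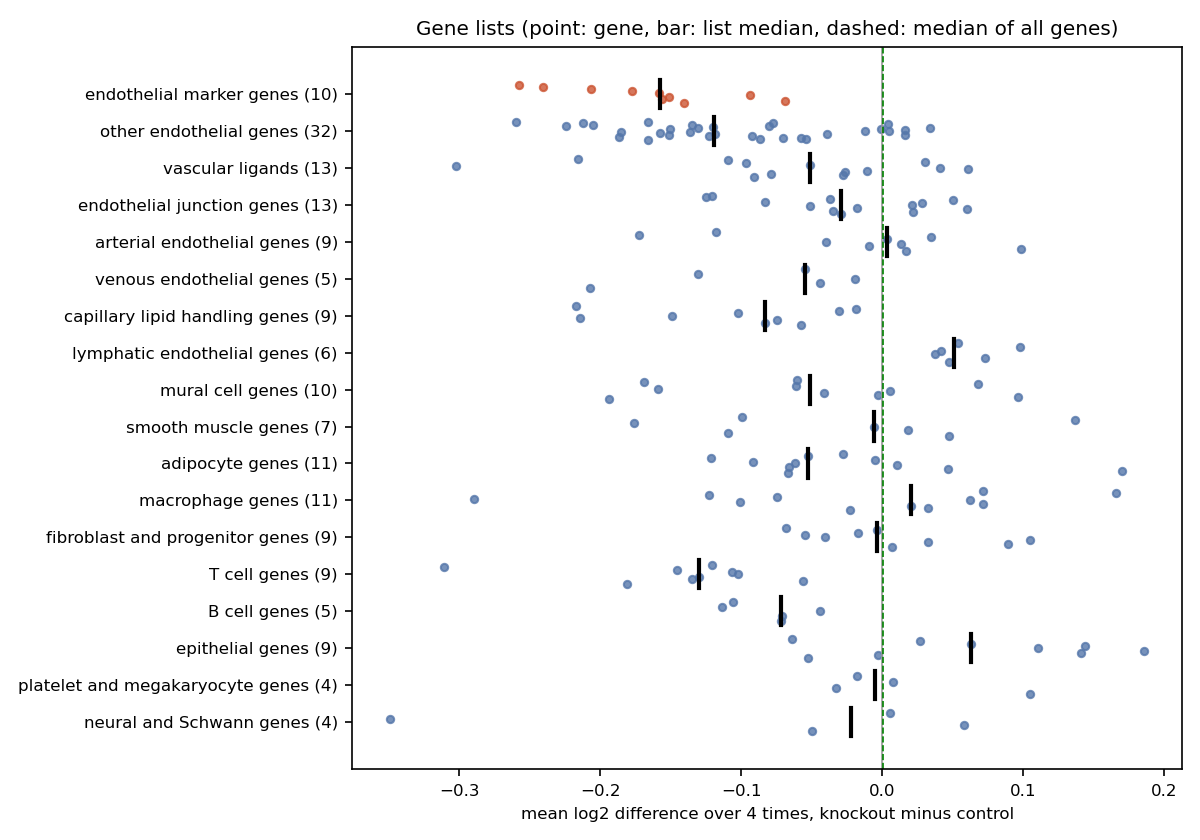
Mean log2 difference over the 4 times, knockout minus control (x axis), of each gene in each list (points, with the number measured in brackets), the list median (bar) and the median of all genes (dashed line). The endothelial marker genes have a median of -0.16 and the other endothelial genes -0.12, and lymphatic genes lie above 0 with the array that stands apart included.

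The list of vascular ligands held those of the VEGF and angiopoietin receptors, apelin, and ligands of Notch and BMP receptors. It was mixed, with 10 of 13 below 0, a median of -0.05 and 0 past the threshold. Vegfa, the ligand of Kdr and Flt1, was at -0.22 ± 0.08 (SE, adjusted p = 0.686), Vegfb, a ligand of Flt1, at -0.11 ± 0.05 (adjusted p = 0.789) and Angpt1, the activating ligand of Tek, at -0.30 ± 0.17 (adjusted p = 0.884). Vegfd, another member of the VEGF family, was at -0.10 ± 0.07 (adjusted p = 0.95), and Angpt2, a context-dependent antagonist of Tek, at 0.04 ± 0.07. Without the 4 further arrays Angpt1 was at -0.49 ± 0.17 (SE, adjusted p = 0.319) and Vegfd at -0.18 ± 0.07 (adjusted p = 0.456). At CT0 the ligands had a median of 0.017 with 7 of 13 above 0. At an unadjusted p under 0.05, 3 were lower, against 2.78% of all genes. Of these Angpt1 was at -0.88 ± 0.33 (SE, adjusted p = 0.802), beside Vegfb at -0.31 ± 0.10 and Vegfd at -0.40 ± 0.15. Without knockout replicate 2 the count was 2, and the share over all genes in that fit is not given here. Angpt1 was then at -1.08 ± 0.36, Vegfb at -0.31 ± 0.11 and Vegfd at -0.24 ± 0.15. Of 13 junction genes that endothelium shares with other cells, 8 lay below 0 with a median of -0.03, and the endothelial-enriched Jam2 (-0.12 ± 0.05, adjusted p = 0.768) and Jam3 (-0.12 ± 0.05, adjusted p = 0.694) were lowest. When the 4 further arrays were left out, 5 of 13 lay below 0 and the median turned to 0.01. At CT0 10 of these 13 genes lay above 0, beside 11044 of 19938 over all genes. Of the 10, 4 had an unadjusted p under 0.05, against 2.77% of all genes that were higher at that level. Without knockout replicate 2 the count was 11 above 0 and 1 at that level, and the share over all genes in that fit is not given here.

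Markers of other cell types were read beside these values. Mural cell genes had a median of -0.05 with 7 of 10 below 0, and their level had r = 0.79 with the members' level over the 24 arrays. Adipocyte genes had a median of -0.05 with 8 of 11 below 0 (r = 0.51), which became -0.0065 with 6 of 11 below 0 without knockout replicate 2 at CT0. The adipocyte level ran from -0.24 to 0.23 over control arrays and from -0.60 to 0.16 over knockout arrays, with medians of 0.02 and 0.06. Macrophage genes had a median of 0.02 (5 of 11 below 0), fibroblast and progenitor genes -0.0038 (5 of 9), smooth muscle genes -0.0057 (4 of 7) and platelet genes, a lineage that also expresses Pecam1, Esam and Tie1, -0.0053 (2 of 4). Epithelial genes had a median of 0.06 (3 of 9 below 0), which became -0.02 without the array that stands apart. T cell genes had a median of -0.13 with 9 of 9 below 0, B cell genes -0.07 (5 of 5) and Schwann cell genes -0.02 (2 of 4), where Cdh19 was at -0.35 ± 0.10 (adjusted p = 0.431). Without knockout replicate 2 at CT0 the medians of fibroblast genes (0.03), platelet genes (0.04) and B cell genes (0.02) lay above 0, that of macrophage genes was 0.06, that of Schwann cell genes -0.01 and that of smooth muscle genes -0.09. With the 4 further arrays left out the medians were -0.02 for mural cell genes, -0.0098 for adipocyte genes, 0.04 for macrophage genes, 0.03 for fibroblast genes, 0.01 for smooth muscle genes, -0.00049 for platelet genes, -0.19 for B cell genes, -0.04 for Schwann cell genes and 0.03 for epithelial genes. Cdh19, a cadherin of Schwann cells, was the only gene of these lists to pass in that fit, at -0.51 ± 0.09 (SE, adjusted p = 0.0064). Of all genes 0.697% passed there (139 of 19938). With all arrays none of these lists' genes passed, beside 0.0201% of all genes. The arrays left out there were chosen for lying toward the other genotype, which favours such a call, so it is a description.

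At separate times some of these lists lay on opposite sides of 0, which a mean over times does not show. Smooth muscle genes were above 0 for 7 of 7 at CT0, with a median of 0.41, and below 0 for 4 of 7 at CT6 (-0.0068), 7 of 7 at CT12 (-0.28) and 6 of 7 at CT18 (-0.33). Macrophage genes were below 0 for 11 of 11 at CT0 (-0.24) and at CT18 (-0.26), and above 0 for 10 of 11 at CT6 (0.22) and at CT12 (0.24). Without knockout replicate 2 at CT0 the CT0 medians were 0.16 for smooth muscle genes and 0.03 for macrophage genes. Mural cell genes had medians of 0.03, -0.05, -0.17 and -0.05 at CT0, CT6, CT12 and CT18, beside the members' -0.04, -0.17, -0.25 and -0.21. Adipocyte genes had -0.10, -0.04, -0.02 and 0.03, and without the 4 further arrays 0.16 at CT18 with 11 of 11 above 0. T cell genes had -0.05, -0.28, 0.05 and -0.25, B cell genes 0.03, -0.50, 0.22 and -0.06, and epithelial genes 0.37, -0.01, -0.03 and -0.03. None of these genes passed at any of the 4 times with all arrays. The part of these cell types in the members' differences was not tested.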

How the data were processed

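Each of 24 samples, in 8 groups of 3 biological replicates, was hybridized to 1 array. Per the labels' protocols, Trizol was used to isolate total RNA, of which 50 ng went into amplification and biotin labelling. The authors deposited log2 values made with RMA, per the submitters' processing notes, with the base read from the range of the values. The RMA version is not given in the sources used here. Array medians over genes lay between 6.46 and 6.56. Of 35556 probe sets, 21789 had 1 symbol, 1621 several and 12146 were unnamed here, and the probe set with the highest mean stood for a gene. All 10 members matched RefSeq (GRCm38.p6) by Entrez number.

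An 8-group model was fitted with limma 3.58.1 (lmFit, eBayes) in R 4.3.3 to all 24 arrays, with 16 residual and 5.03 prior degrees of freedom, Benjamini-Hochberg adjustment over 19938 genes and a threshold of 0.05, and tested on simulated data. Descriptions used Python 3.11.15. No dim genes were dropped. Arrays have no depth, and their number limits the precision. Replicates are separate mice only as far as the labels' word biological says. The members, lists and 4 arrays named were chosen with earlier results of these data known. Genes were named by rule: the members, up to 4 genes of a list with the smallest p, and the 10 most like the members. Adipoq, Plvap, Ecscr, Cd93, Cd36, Fabp4 and Angpt2, and the promoters printed, were named after their values were seen. Alternatives were normalization, array scaling, a filter on dim genes, probe set choice, weights, variance settings, a replicate block and arrays left out.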

Additional observations from a re-analysis of the deposited data

How the results depend on the processing

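In all settings tried 0 of 10 members passed for the mean genotype difference, whose median over the members stayed below 0. Genes past the threshold for it numbered 4, against 0 under quantile normalization, robust variance estimation and the replicate block, 9 with a variance trend, 10 without the dimmest 0.25 of genes, 51 with array weights and 139 without the 4 arrays toward the other genotype. Without those 4 arrays the counts were 6 at CT0, 1 at CT6, 10 at CT12 and 0 at CT18, 24 for time in control fat, 4 in knockout fat and 75 over both, against 0, 0, 0, 1, 12, 14 and 176. With array weights the time counts were 82, 30 and 594, and in knockout fat 23 under quantile normalization and under median subtraction. The CT18 count was also 0 under quantile normalization, median subtraction, the dim filter, array weights and the block.

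With array weights 1 member passed for CT12 minus CT0 and 1 for time in control fat, and the CT0 median of the members turned from -0.04 to 0.059. Counts over all genes for time also rose with array weights, as given above, and no such count was made for CT12 minus CT0. These member counts are therefore a description. With medians subtracted 0 passed for time over both genotypes, in place of 1.

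With each array left out in turn, the counts ran from 0 to 30 for the mean genotype difference, 0 to 3 at CT0, 0 to 5 at CT18, 0 to 1 for the interaction, 9 to 25 and 4 to 74 for time in control and knockout fat and 88 to 291 over both, with 0 to 1 members. The highest counts came without knockout replicate 1 at CT12 (30 and 3), without knockout replicate 2 at CT18 (5, 1, 74 and 291) and without knockout replicate 2 at CT0 (25). The CT0 median ran from -0.18 to 0.086. The causes were not tested.

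Replicate numbers did not pair the samples at every time: 5 of 12 same-numbered pairs correlated above 0.1, and 5 of 12 were best with their own number. Both counts included every pair at CT0 (r = 0.19, 0.37 and 0.33), while at CT12 every same-numbered r was below 0 (-0.37, -0.03 and -0.29). With the replicate block the smallest adjusted p of a member for the mean genotype difference was 0.539 by limma (Pecam1 and Ptprb). For genotype differences the block was each same-numbered pair of a time, and for time it was the replicate number.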
